A study of Mus musculus with 4 samples.

Results

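The Naip genes and their inflammasome partners were followed as 10 named genes in mouse NIH3T3 fibroblasts with and without induced Ctcfl: Naip1, Naip2, Naip5, Naip6, Nlrc4, Nlrp3, Pycard, Casp1, Gsdmd and Il18. Of these 10, 9 were represented by 1 probe set each among the 19938 genes with a probe set of a single symbol, and Naip1 was not analysed here. In all, 3 probe sets listed a Naip symbol, 1 each for Naip2, Naip5 and Naip6, and 0 listed several Naip symbols. The genes were picked by name. The brightest probe set of a gene was taken by its mean over the 4 arrays, but each measured member had only 1 probe set. Because the names were picked when earlier results of the same comparison were known, the differences of these genes between the groups are given as a description, without a test of their own.

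All 4 samples came from the stable clone p19 of NIH3T3, an established mouse fibroblast line, which carried the integrated constructs pBI-EGFP-FLAG-mCtcfl and pTA-N. Ctcfl encodes CTCFL, or BORIS, a germ-line paralog of the insulator protein CTCF. The 2 control samples grew with doxycycline at 2 µg/ml, which represses the transgene in this Tet-Off system, and the 2 Ctcfl samples grew without the drug for 48 h, so that withdrawal of doxycycline and induction of Ctcfl cannot be told apart. A single clone was used. Nothing in the labels tells whether the replicates grew as separate cultures, and each p-value therefore rests on differences between arrays that may be technical only. Every sample had its own Affymetrix array, and values are log2 expression values after robust multi-array averaging (RMA). The array medians lay between 5.20 and 5.24 and the lower quartiles between 4.09 and 4.12. The Ctcfl probe set read 7.77 and 7.71 on the control arrays against 10.37 and 10.35 on the Ctcfl arrays. All 14 fibroblast markers were measured, of which Lum and Fap were below the lower quartile on all 4 arrays, Postn on 3 and the rest on none.

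NAIP proteins are cytosolic sensors of bacteria. In mouse cells NAIP5 and NAIP6 bind flagellin, NAIP2 binds the inner rod protein of type III secretion systems and NAIP1 binds the needle protein. A NAIP that has bound its ligand recruits NLRC4 into an inflammasome, which activates caspase-1. Caspase-1 then matures interleukin-18 and interleukin-1 beta and cleaves gasdermin D, which forms pores in the plasma membrane. The pathway is best known from macrophages and the intestinal epithelium.

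The Naip genes lie next to each other on mouse chromosome 13, so the 250 bases before their RefSeq starts are shown for the measured Naip genes, to let their sequences be set beside their values. All windows are from RefSeq on build GRCm38.p6 and read 5′ to 3′ on the minus strand, at chr13:100202123-100202372 for Naip2, chr13:100247337-100247586 for Naip5 and chr13:100316617-100316866 for Naip6. Capitals mark runs of at least 12 bases that Naip2 and Naip5 share exactly.
Naip2: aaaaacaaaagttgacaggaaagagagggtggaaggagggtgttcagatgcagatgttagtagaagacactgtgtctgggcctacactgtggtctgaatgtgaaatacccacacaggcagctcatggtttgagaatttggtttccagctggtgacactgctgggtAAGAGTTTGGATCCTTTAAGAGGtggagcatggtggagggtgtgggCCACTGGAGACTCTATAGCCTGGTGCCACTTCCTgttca
Naip5: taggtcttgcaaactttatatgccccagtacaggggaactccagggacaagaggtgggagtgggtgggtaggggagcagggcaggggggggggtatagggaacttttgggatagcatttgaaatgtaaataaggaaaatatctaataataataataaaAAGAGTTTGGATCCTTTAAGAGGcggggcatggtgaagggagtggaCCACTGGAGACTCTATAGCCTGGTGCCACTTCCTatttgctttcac
Naip6: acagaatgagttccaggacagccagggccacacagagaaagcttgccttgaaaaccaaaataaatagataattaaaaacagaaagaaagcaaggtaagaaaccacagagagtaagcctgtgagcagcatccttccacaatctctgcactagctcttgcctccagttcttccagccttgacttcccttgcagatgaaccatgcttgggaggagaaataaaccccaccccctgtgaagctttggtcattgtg
Naip2 and Naip5 shared 2 such runs with 57 bases in all, close to the start. The longer run of 34 bases, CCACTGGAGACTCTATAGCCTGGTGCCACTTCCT, was held by 2 of the 32851 RefSeq windows of this length on either strand, those of Naip2 and Naip5. From this start Naip6 shared 0 runs of at least 12 bases with either gene, and Naip1 shared 1 run of 14 bases with Naip5. Of the 10 genes, 9 had at least 1 window, and 2 motifs were searched in them on both strands. The letters AGGAAGT, a core bound by ETS factors, were found for Naip2, Naip5, Nlrc4 and Pycard, and 7.69% of all windows held them. In Naip2 and Naip5 they lie, on the opposite strand, inside the 34-base run. The letters AGNNGGC, from the centre of the CTCF consensus, were found for Nlrc4 and Casp1 and for none of the Naip genes, but 52.5% of all windows held them, so these letters set few windows apart. Matches of the 2 motifs may overlap. These matches describe letters only. The annotation of the Naip6 probe set also lists a transcript that the RefSeq table of this build does not hold, so the start shown need not be that of the transcript it reads.

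The 3 measured Naip genes had higher values on both Ctcfl arrays than on both control arrays. Naip5, the flagellin sensor at the locus that governs growth of Legionella in mouse macrophages, read 5.95 and 5.86 on the control arrays and 6.59 and 6.79 on the Ctcfl arrays. The lowest Ctcfl value lay 0.64 above the highest control value on the log2 scale, and the difference between the means was 0.785 (SE 0.10, n = 2 per group), or 1.72-fold. Naip6, the other flagellin sensor, read 5.03 and 5.14 on the control arrays and 5.98 and 5.77 on the Ctcfl arrays. Its groups were 0.63 apart at their closest, and its difference of 0.79 (SE 0.11) was 1.73-fold. Naip2, the sensor of the rod protein, read 6.54 and 6.43 on the control arrays and 6.80 and 6.99 on the Ctcfl arrays. This was the smallest difference of the 3, at 0.41 (SE 0.10) or 1.33-fold, with the groups 0.26 apart at their closest. In bulk RNA, more messenger RNA per cell and more cells with it cannot be told apart. Among all genes ordered by log2 difference, highest first, Naip6 stood at place 15, Naip5 at place 17 and Naip2 at place 165 of 19938.

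The partners of the NAIP proteins had small differences of either sign. Nlrc4, the adaptor that NAIP proteins recruit, read 4.02 and 3.65 on the control arrays and 3.64 and 3.67 on the Ctcfl arrays. The groups overlapped, with control replicate 1 above the other 3 arrays and a difference of -0.18 (SE 0.13). Casp1, the protease of the complex, read 3.34 and 3.41 against 3.38 and 3.14, with overlapping groups and a difference of -0.12 (SE 0.11). Il18, the precursor of interleukin-18, read 3.77 on both control arrays against 3.74 and 3.95 on the Ctcfl arrays, a difference of 0.075 (SE 0.10) with overlapping groups. Gsdmd, which encodes the pore-forming gasdermin D, read 6.35 and 6.25 against 6.42 and 6.38. Its groups did not overlap, but the gap between them was only 0.03 and the difference 0.10 (SE 0.09).

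The sensor and the adaptor of the other well-known inflammasome gave small values as well. Nlrp3, a sensor of membrane damage and ion flux, read 3.63 and 3.92 on the control arrays and 3.63 and 3.69 on the Ctcfl arrays, a difference of -0.12 (SE 0.12). Pycard, which encodes the adaptor ASC that links such sensors to caspase-1, read 4.91 and 4.59 against 4.79 and 4.93, a difference of 0.11 (SE 0.13). Both genes had overlapping groups. Nlrc4, Nlrp3, Casp1 and Il18 lay below the lower quartile on all 4 arrays, and without detection calls such values cannot be separated from background. A small difference in these 4 genes therefore says little about their messenger RNA. Over the 6 partners the log2 differences ran from -0.18 to 0.11 with a median of -0.02, against 0.41 to 0.79 with a median of 0.785 for the 3 Naip genes and a median of 0 over all genes.

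**Figure D1:**
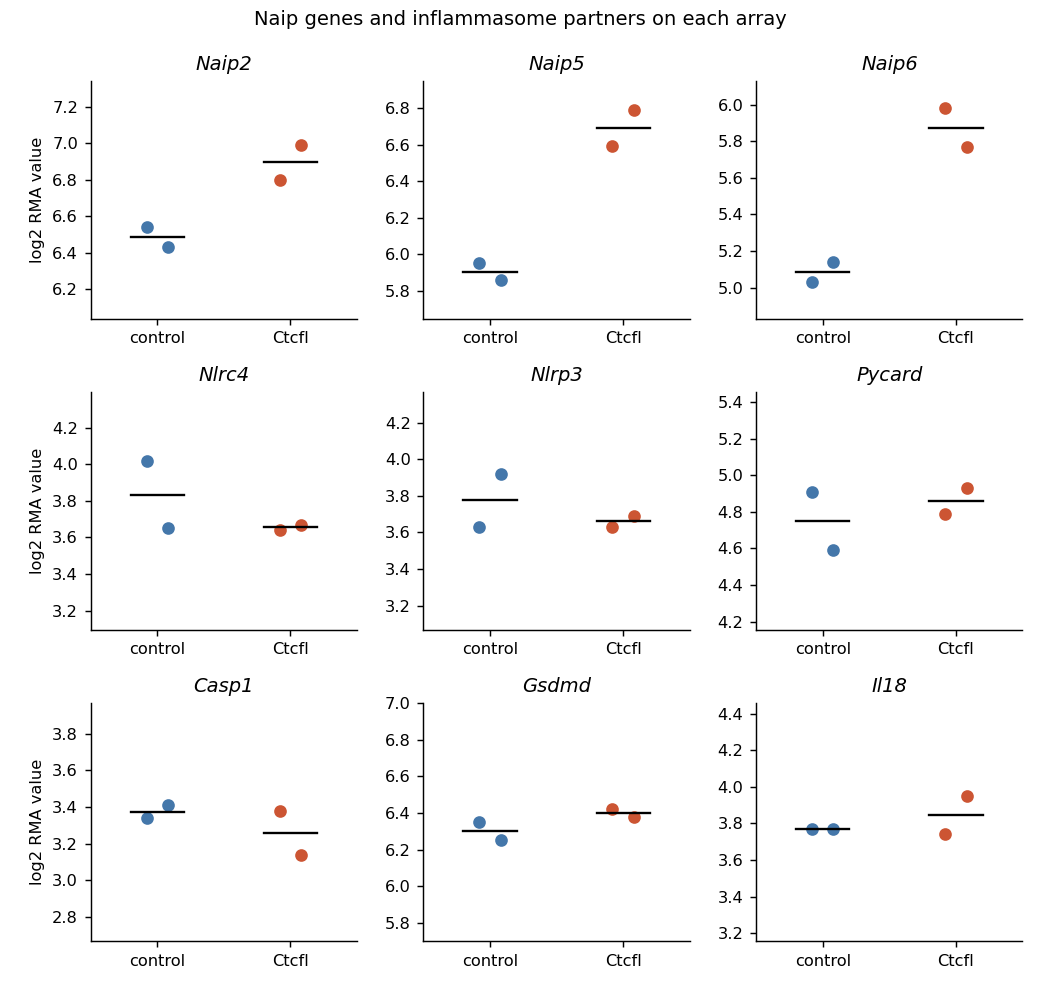
Log2 RMA values of the 9 measured genes on each array, with controls in blue and Ctcfl in orange, 2 arrays per group, and a black bar at each group's mean. Every panel spans the same log2 distance around its gene's mean. Naip5 and Naip6 show the widest gaps between groups, 0.64 and 0.63, and Nlrc4, Nlrp3, Pycard, Casp1 and Il18 overlap.

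In the limma fit over all 19938 genes, 9 genes (0.0451%) passed an adjusted p of 0.05 in either direction, and 0 of the 9 measured members were among them. At an unadjusted p under 0.05, where 10.7% of all genes lie, there were 3 members, the Naip genes. Non-overlapping groups with the higher values in Ctcfl were found for 4 members, the Naip genes and Gsdmd, against 20.6% of all genes. When variances were fitted robustly with a trend on intensity, limma called 479 genes (2.4%), and 3 of the 9 members were among them, again Naip2, Naip5 and Naip6. The members were picked with this comparison known, so these counts are given without any reading of them.

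The measured Naip genes did not follow the same order within the groups. Naip2 and Naip5 read higher on Ctcfl replicate 2 than on replicate 1, while Naip6 read higher on replicate 1. Distances between genes were Euclidean, on values centred on each gene's mean over the 4 arrays. Naip5 was 0.323 from Naip6 and 52 places down the list of genes closest to Naip6. Naip2 was 0.499 from Naip6 and 314 places down that list. Among the genes closest to Naip2, Naip5 stood 4623 places down and Naip6 11255. Naip6 had the widest range over the 4 arrays of all measured members, 0.95. The 3 genes closest to it were Fzd4 at a distance of 0.102, Fam234a at 0.106 and Slc43a1 at 0.125. Fzd4, a receptor for Wnt ligands and Norrin, read 5.49 and 5.68 on the control arrays and 6.42 and 6.33 on the Ctcfl arrays. Slc43a1, a transporter of large neutral amino acids, had a difference of 0.68 (SE 0.10) and Fam234a had 0.82 (SE 0.09). With 4 arrays in 2 groups, a short distance says mainly that the difference between the groups is of like size.

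**Figure D2:**
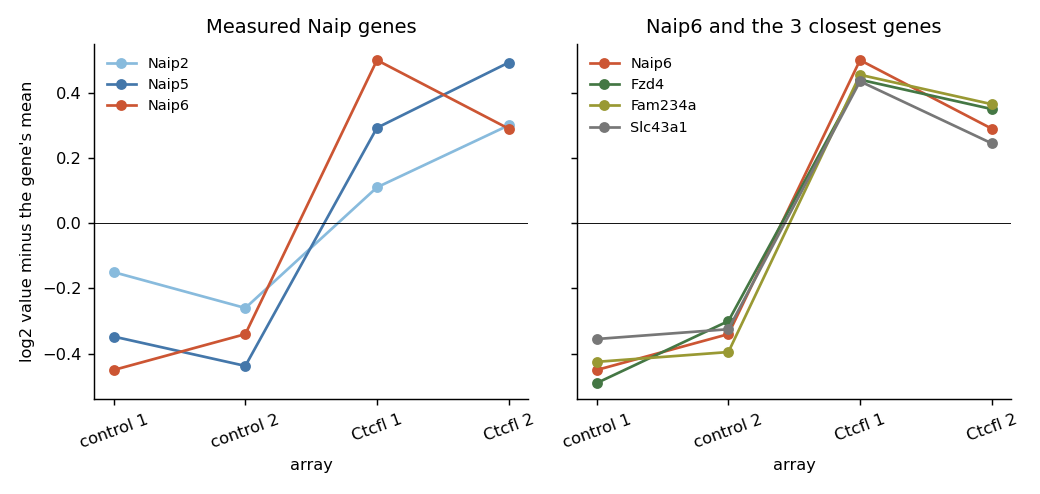
Log2 values minus each gene's own mean (vertical axis) on the 4 arrays (horizontal axis), for the 3 measured Naip genes on the left and for Naip6 with its 3 closest genes on the right. Lines only join the values of a gene. Control arrays lie below 0 and Ctcfl arrays above 0 for every gene drawn, and the distance from Naip6 is 0.102 for Fzd4.

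Genes beside the Naip cluster on chromosome 13 had differences near 0. In RefSeq order, the 3 measured genes before the cluster were Bdp1, a subunit of the RNA polymerase III factor TFIIIB, with a log2 difference of 0.015 (SE 0.08), Serf1 with 0.06 (SE 0.16) and Smn1, the survival motor neuron gene, with 0.005 (SE 0.09). Smn1, which adjoins Naip2, read 7.34 and 7.21 on the control arrays and 7.24 and 7.32 on the Ctcfl arrays. The 3 measured genes after the cluster were Ocln, which encodes the tight junction protein occludin, with -0.035 (SE 0.16), Marveld2, which encodes tricellulin, with 0.095 (SE 0.10) and the checkpoint gene Rad17 with 0.015 (SE 0.09). Naip1 and Gtf2h2, which lie between Naip6 and Ocln, were not analysed here. All 6 neighbours had overlapping groups. Over all genes, 20.6% did not overlap with higher values in Ctcfl and 20.6% with lower values. By limma, 0 of the 6 passed an unadjusted p of 0.05 (10.7% of all genes) or an adjusted p of 0.05 (0.0451% of all genes). Since 91.2% of all genes differed by at most 1.2-fold, small differences do not set these 6 genes apart. Ocln was below the lower quartile on all 4 arrays, and Marveld2 on 1. The Naip genes are near copies of each other, and probe sequences were not used here, so how far a Naip probe set also reads the messenger RNA of another Naip gene was not tested.

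**Figure D3:**
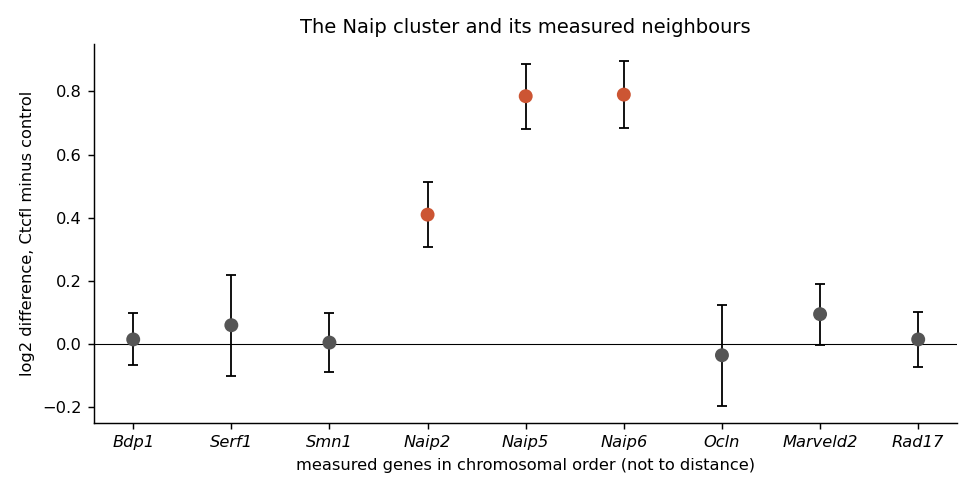
Log2 difference, Ctcfl minus control (vertical axis), with its standard error from limma, for the 3 measured Naip genes in orange and the 3 measured genes on each side in grey, in chromosomal order with no scale of distance. The Naip genes lie at 0.41, 0.785 and 0.79, and the neighbours between -0.035 and 0.095.

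Other genes of the pathway were read as 7 lists with 77 measured genes of 91. By limma over all genes, 0 of the 77 passed in either direction (0.0451% of all genes) and 1 passed an unadjusted p of 0.05 (10.7% of all genes). Non-overlapping groups were found for 11 with higher values in Ctcfl (20.6% of all genes) and 14 with lower values (20.6% of all genes). Their median log2 difference was 0.02, with a range from -0.345 to 0.245. Of the 77, 18 lay below the lower quartile on all 4 arrays, against 3185 of all 19938 genes. Small differences in these 18 say little about their messenger RNA, since without detection calls they cannot be separated from background. With robust variances and the intensity trend 0 of the 77 passed too (2.4% of all genes).

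Other genes with the BIR domain, which NAIP proteins share with inhibitors of apoptosis, had a median of -0.045 over 6 measured genes. In this list Birc7 had -0.265 (SE 0.12, adjusted p = 0.487 by limma) and Birc2 had -0.17 (SE 0.15, adjusted p = 0.720 by limma). Among 8 other inflammasome sensors the median was 0.015. Nlrp1a, a relative of the anthrax lethal factor sensor gene Nlrp1b, was the 1 gene of all lists at an unadjusted p under 0.05. It read 4.01 and 3.91 on the control arrays and 3.51 and 3.72 on the Ctcfl arrays, a difference of -0.345 (SE 0.10, adjusted p = 0.383 by limma), and was below the lower quartile on all 4 arrays. Nlrp9c, also below it on all 4 arrays, had -0.15 (SE 0.08, adjusted p = 0.560 by limma). In all, 4 of these 8 sensors were below the lower quartile on every array. Aim2, the sensor of cytosolic DNA, read 8.20 and 8.03 against 7.99 and 8.28.

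The 15 other NLR genes, named for their nucleotide-binding domain and leucine-rich repeats, had a median of 0.04. Nlrp4b had 0.17 (SE 0.08, adjusted p = 0.519 by limma) and Nlrc5, a transactivator of MHC class I genes, had 0.155 (SE 0.08, adjusted p = 0.545 by limma). Of the 15, 7 were below the lower quartile on all 4 arrays, Nlrp4b among them. Among 11 other caspase, gasdermin and membrane rupture genes the median was 0.07. Casp8 had 0.225 (SE 0.11, adjusted p = 0.513 by limma) and Gsdme, a gasdermin cut by caspase-3, had 0.22 (SE 0.09, adjusted p = 0.475 by limma). Casp4, the murine caspase-11 that senses lipopolysaccharide in the cytosol, read 7.49 and 7.45 on the control arrays and 7.31 and 7.37 on the Ctcfl arrays.

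Interleukin-1 family genes and their receptors had a median of -0.065 over 10 measured genes. Il1rap, the shared receptor subunit, had -0.225 (SE 0.09, adjusted p = 0.474 by limma) and Il18bp, the decoy that binds interleukin-18, had -0.145 (SE 0.09, adjusted p = 0.599 by limma). Il1b read 4.18 and 4.20 against 4.05 and 4.18. For 21 modulators of inflammasomes the median was 0.04, with the adaptor gene Myd88 at -0.19 (SE 0.08, adjusted p = 0.484 by limma) and Fbxl2 at 0.16 (SE 0.08, adjusted p = 0.536 by limma). The 6 measured transcription factors had a median of -0.02, with Irf4 at -0.21 (SE 0.09, adjusted p = 0.474 by limma) and Irf2 at 0.10 (SE 0.13, adjusted p = 0.811 by limma). Irf4 was below the lower quartile on all 4 arrays. Irf8, which drives Naip genes in mouse macrophages, read 5.02 and 5.30 on the control arrays and 5.26 and 5.05 on the Ctcfl arrays, so that its groups overlapped with a difference of -0.005 (SE 0.13).

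**Figure D4:**
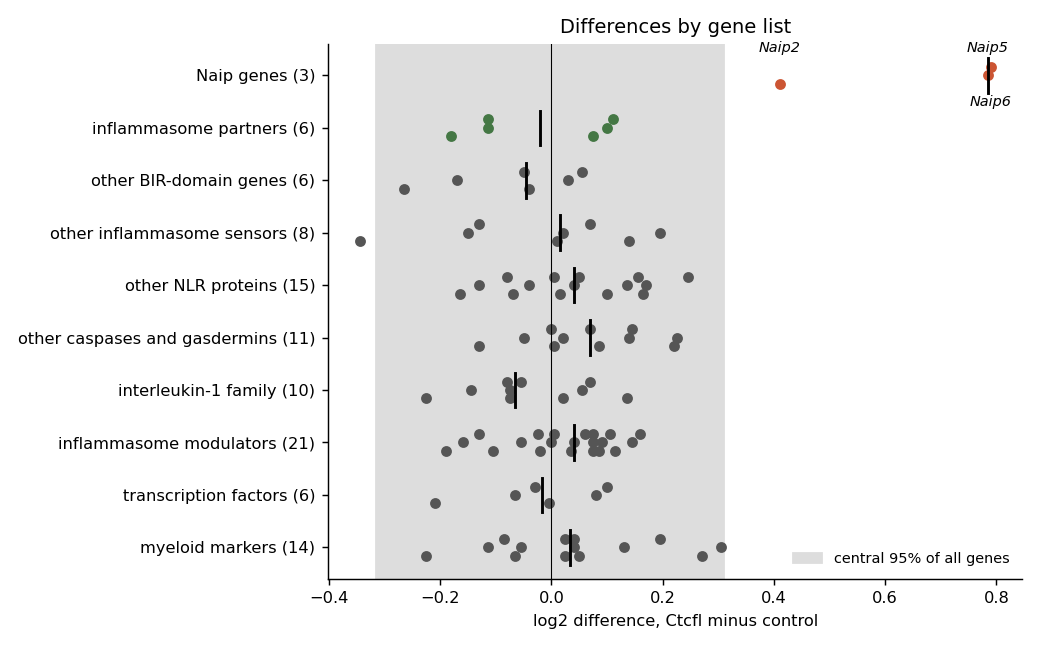
Log2 difference, Ctcfl minus control (horizontal axis), of each measured gene by list (vertical axis, number of genes in brackets), with a black bar at the list's median and a grey band from -0.315 to 0.31 that holds the central 95% of all genes. The 3 Naip genes lie above the band, and of the 77 genes of the 7 pathway lists only Nlrp1a, at -0.345, lies outside it.

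Since Naip genes are expressed in macrophages, markers of other cells were read beside them. Of 14 markers of macrophages and other myeloid cells, 0 passed over all genes by limma (0.0451% of all genes). At an unadjusted p of 0.05 (10.7% of all genes) 1 passed, Fcer1g (0.305, SE 0.10, adjusted p = 0.402 by limma). Next to it, Ly86, below the lower quartile on 3 arrays, had 0.27 (SE 0.12). Of the 14, 9 had higher and 5 lower values in Ctcfl, with a median log2 difference of 0.032. Groups did not overlap for 2 with higher values in Ctcfl (20.6% of all genes) and 2 with lower values (20.6% of all genes). Among the lower was Csf1r at -0.225 (SE 0.11). With robust variances and the intensity trend (2.4% of all genes) 0 of the 14 passed. Ptprc, the common leukocyte antigen, read 4.10 to 4.18 over the 4 arrays, and the macrophage marker Adgre1 was below the lower quartile on all of them. In all, 3 of the 14 were below it on all 4 arrays. Others read higher: Cd68 read 6.11 to 6.39 and Cd14 read 5.88 to 6.32, above the array medians of 5.20 to 5.24. The mean of the 14 log2 values was 4.49 and 4.60 on the control arrays and 4.59 and 4.57 on the Ctcfl arrays. Of 7 epithelial markers, 5 endothelial and 5 lymphocyte markers, 0 passed over all genes by limma (0.0451% of all genes). At an unadjusted p under 0.05 (10.7% of all genes) there was 1, the keratin gene Krt8. Krt8 read 6.06 and 5.66 against 6.46 and 6.41, a difference of 0.575 (SE 0.14, adjusted p = 0.312 by limma). With robust variances and the intensity trend (2.4% of all genes) Krt8 passed (adjusted p = 0.0278 by limma), the 1 gene of these 3 lists that did. The others with the smallest unadjusted p were Krt19 (-0.185), the endothelial genes Cdh5 (0.14) and Emcn (0.165) and the lymphocyte genes Cd3g (0.27) and Ms4a1 (0.205). Of the 5 endothelial markers 2 were below the lower quartile on all 4 arrays, Emcn among them. So were 4 of the 5 lymphocyte markers, Cd3g and Ms4a1 among them. Of the 5 lymphocyte markers 2 were higher and 3 lower in Ctcfl, with a median of -0.03. Of the 14 fibroblast markers, 12 had lower and 2 higher values in the Ctcfl arrays, with a median log2 difference of -0.128. Dcn, the matrix proteoglycan decorin, read 8.32 and 8.27 on the control arrays and 7.33 and 7.44 on the Ctcfl arrays, a difference of -0.91 (SE 0.09, adjusted p = 0.0657 by limma). Pdgfrb, a growth factor receptor, had -0.56 (SE 0.09, adjusted p = 0.180 by limma), and the collagen genes Col6a3 and Col3a1 had -0.615 and -0.38. Col1a1 had 0.065, with higher non-overlapping values in Ctcfl, and Thy1 had 0.005. Groups did not overlap, with the lower values in Ctcfl, for 10 of 14 (20.6% of all genes). The mean of the list was 8.25 and 8.20 on the Ctcfl arrays against 8.48 and 8.46 on the control arrays. Of these 14, 0 passed over all genes, 5 passed an unadjusted p of 0.05 (10.7% of all genes) and 5 passed with robust variances and the intensity trend (2.4% of all genes). The part of these differences in the values of the Naip genes was not tested.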

How the data were processed

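Messenger RNA of 4 NIH3T3 samples, 2 control and 2 Ctcfl, was measured on Affymetrix arrays. The authors deposited log2 values from RMA, computed in Expression Console per the labels. RMA corrects background, quantile-normalises the arrays and averages the probes of a probe set, so low values are compressed. Version and settings are not given in the sources used here. Of 35512 probe sets, 1 had no value, 21789 had 1 gene symbol in the platform annotation of 2016 and 1621 had several. The other 12101 had no symbol there or were not listed. The brightest probe set stood for each of 19938 genes.

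A limma model (version 3.58.1, R 4.3.3, two-sided, lmFit then eBayes) was fitted to all 4 arrays, adjusted by Benjamini-Hochberg over all genes, with a threshold of 0.05. Alternatives were median centring, quantile normalisation, a filter on the dimmest 33.3% of genes, probe sets averaged per gene, robust variances with an intensity trend (statmod 1.5.0), a fit over all probe sets, replicate blocks and each array left out. The members and lists were chosen with earlier results of these data known. Members were named in full, and from each list the genes past the threshold or else the 2 with the smallest unadjusted p. Col6a3, Col3a1, Col1a1, Thy1, Lum, Fap, Postn, Aim2, Casp4, Il1b, Irf8, Ptprc, Adgre1, Csf1r, Cd68 and Cd14 were chosen after their values were seen. Promoter windows came from RefSeq (GRCm38.p6). Figures were drawn with matplotlib 3.10.9. The number of arrays limits the precision.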

Additional observations from a re-analysis of the deposited data

How the results depend on the processing

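The count of genes called by limma moved with the processing: against 9 in the fit as reported, it was 20 without the dimmest 33.3% of genes, 479 with robust variances and an intensity trend, 0 over all 35511 probe sets (2764 unadjusted), 0 with the replicate block (1468 unadjusted) and 0 when any array was left out (1329 to 1663 unadjusted). Deviations of same-numbered arrays had only a weak negative correlation across genes (r = -0.102). A crossed replicate block, chosen after seeing the data, also called 0 genes (2105 unadjusted). The replicates share only a number. Of the 9 members, 3 were called with robust variances and the intensity trend, and 0 under each other alternative, where 3 had an unadjusted p under 0.05, or 2 without Ctcfl replicate 2. Leaving out each array gave log2 differences of 0.315 to 0.505 for Naip2, 0.685 to 0.885 for Naip5 and 0.685 to 0.895 for Naip6. The sign turned for Nlrc4, Nlrp3, Pycard, Casp1 and Il18 when 1 array was left out. With 2 arrays per group such a shift cannot exceed the spread between replicates, so its size tells nothing more. Every measured member had 1 probe set, so further probe sets of a member gave no value. Without detection calls, signal over background is unknown, which limits Nlrc4, Nlrp3, Casp1 and Il18, all of them left out with the dimmest genes.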
